A study of Danio rerio with 20 samples.

Results

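The 4 engrailed genes of the zebrafish, en1a, en1b, en2a and en2b, were followed in whole embryos exposed to 3 inhibitors of hedgehog signalling. They were taken as the probes whose RefSeq identifier on the array belongs to one of these genes. Each gene had 1 probe (A_15_P202041 for en1a, A_15_P219226 for en1b, A_15_P105941 for en2a and A_15_P106806 for en2b), so the set held 4 of 14657 genes on the array, and all 4 were among the 11433 genes bright enough to be tested.

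Wild-type status and strain were not given in the sources used here, and no allele or transgene was named. Cyclopamine, a plant alkaloid that binds the transmembrane protein Smoothened, SANT-2, a synthetic Smoothened antagonist, and GANT-61, an antagonist of the Gli transcription factors, were each given at 10 µM. The control embryos received 0.1% ethanol. Exposure ran between 0.5 and 24 h post fertilisation in every group, and each of the 5 independent replicates per group was a pool of 100 embryos hybridised to its own 1-colour Agilent array, 20 arrays in all. A single dose and a single time were measured, and a level is the average over whole pooled embryos, in which fewer cells of a type and less RNA per cell cannot be told apart.

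Engrailed proteins are homeodomain transcription factors that act mainly as repressors, with Groucho proteins as corepressors and Pbx proteins as DNA-binding partners. In the zebrafish embryo they mark the midbrain-hindbrain boundary, where they take part with Pax2, Wnt and Fgf signals in keeping the boundary organiser, and the muscle pioneers, the slow muscle cells that lie at the future horizontal myoseptum. Muscle pioneers need strong hedgehog signal from the notochord and floor plate, and Bmp signal counteracts engrailed expression in the somite, whereas the boundary expression is set up by other signals. Inhibitory V1 interneurons of the spinal cord also carry engrailed. The a and b copies of each gene are duplicates retained in teleost fish.

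The levels below are the processed Cy3 intensity of a probe divided by the 75th percentile of its array, given as a percentage or as log2. A level serves to compare arrays for the same probe and not to compare probes. The 20 arrays lay on 4 slides that each held arrays of all 4 groups. The 75th percentile was between 564.9 and 762.2 on slide 2 and between 1125 and 2060 on the other slides, and 10038 to 12610 probes per array were well above background. No engrailed spot was saturated or marked as an outlier. A gene was called when its limma p-value, adjusted by the Benjamini-Hochberg method over all 11433 genes of a comparison, was under 0.05.

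The en1a level fell with cyclopamine against ethanol, and no other engrailed gene was called in the model without a block. A block for replicate number, taken as pairs in this comparison, also called en1b, as given below. The en1a probe stood at 3.42, 0.767, 2.07, 2.43 and 2.62% of the 75th percentile in cyclopamine embryos, against 12.0, 7.68, 12.8, 9.16 and 9.26% in ethanol embryos. The highest cyclopamine array lay below the lowest ethanol array, so the groups did not overlap. On 2 of the 5 cyclopamine arrays, replicates 2 and 3, en1a was not well above background, while it was so on 5 of 5 arrays of each other group.

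In the model en1a differed by -2.30 ± 0.32 on the log2 scale (SE, 95% interval -2.97 to -1.63) between cyclopamine and ethanol, 4.93-fold lower (limma, adjusted p = 0.000356). It was lower in 5 of 5 pairs of the same replicate number and on 4 of 4 slides, by -2.63 to -1.82 within a slide. The arrays of a pair shared a slide in 5 of 5 pairs. The counts by pair and by slide, here and for en1b below, therefore rest on the same differences. Of all genes tested, 0.875% were called in this comparison, and 0.84% were called lower. Groups that did not overlap, with cyclopamine lower, were seen for 1.4% of all genes.

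Both alternative background corrections below changed the en1a difference, and both also added an offset of 50 intensity units. Before scaling, the en1a signal was 9.62 to 55.2 units in cyclopamine embryos and 89.7 to 247 in ethanol embryos. An offset of that size shrinks log2 differences between such low signals. The parts of the offset and of the background model were not tested apart. With a background model fitted on the negative control spots, added after the data were seen, the difference was -0.99 (adjusted p = 0.00896). The planned normexp correction gave 0.34 with no call, and its fitted background spread was 8905 and 13306 intensity units on 2 cyclopamine arrays, against at most 48.1 on the other 18 arrays.

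The duplicate en1b was at 52.9, 32.0, 31.9, 45.2 and 42.7% in cyclopamine embryos, against 54.4, 51.5, 63.1, 55.4 and 55.1% in ethanol embryos. Replicate 1 of the cyclopamine group lay inside the ethanol range and the other 4 lay below it. The difference was -0.47 ± 0.15 (SE, 95% interval -0.79 to -0.16), negative in 5 of 5 pairs and on 4 of 4 slides, and did not pass (limma, adjusted p = 0.310). A block for replicate number brought it past the threshold (limma, adjusted p = 0.0333, 2.24% of all genes called in that fit), and a block for slide did not (limma, adjusted p = 0.0864).

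The en2a probe was at 47.1, 69.6, 45.1, 58.1 and 62.4% in cyclopamine embryos, against 54.8, 56.7, 35.4, 58.5 and 72.7% in ethanol embryos. The ethanol arrays spanned the whole cyclopamine range. The log2 difference was 0.04 with a 95% interval of -0.38 to 0.46, so a change of more than 0.46 in either direction lies outside that interval.

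The en2b probe was at 68.7, 68.6, 49.8, 63.8 and 81.2% in cyclopamine embryos, against 56.1, 60.7, 37.8, 57.0 and 70.4% in ethanol embryos. The groups overlapped, although the cyclopamine array was the higher one in 5 of 5 pairs, by 0.16 to 0.40 on the log2 scale. The difference was 0.25 ± 0.16 (SE, 95% interval -0.09 to 0.58) and did not pass. With slide as a block its interval was 0.0023 to 0.49 (limma, adjusted p = 0.326).

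**Figure D1:**
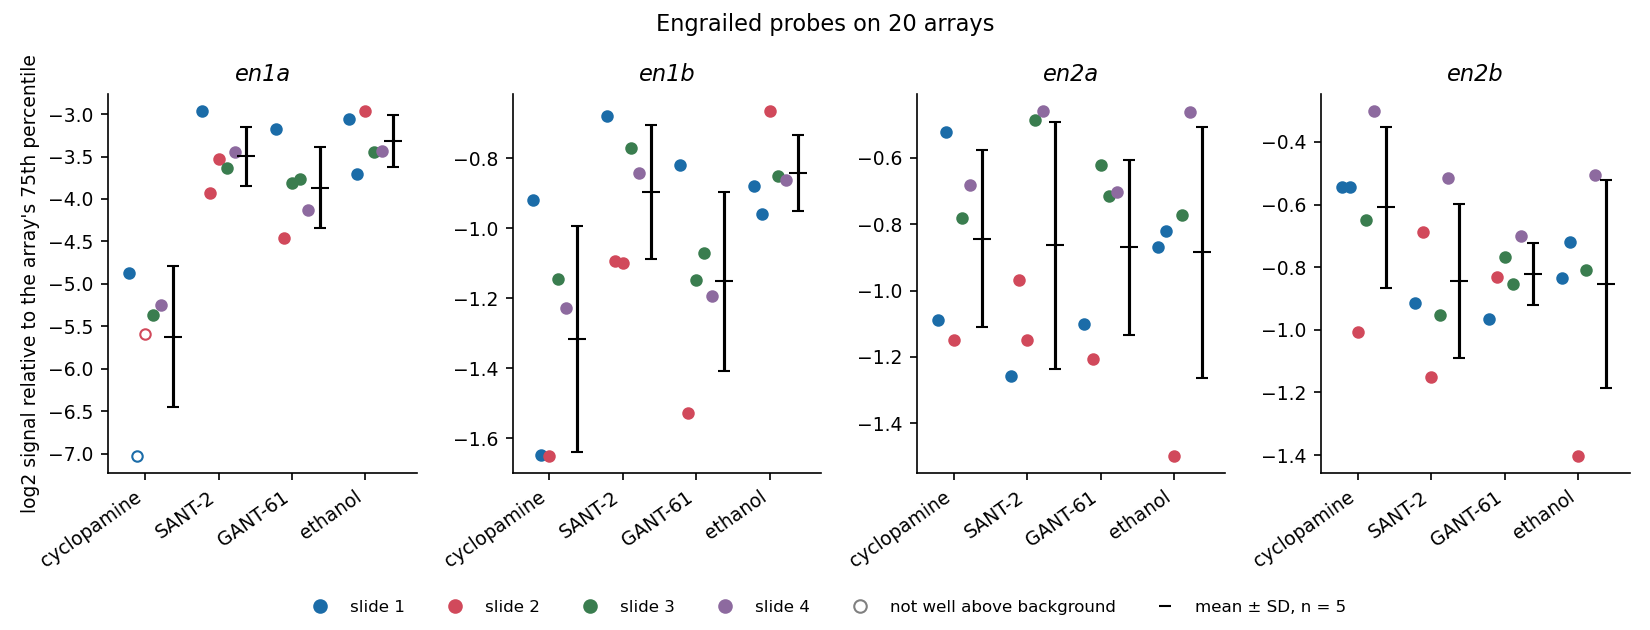
Log2 signal of the 4 engrailed probes relative to the 75th percentile of each array (vertical axes, scaled separately per gene) by group, with 1 point per array coloured by slide, hollow points for arrays on which the probe was not well above background, and bars for the mean ± SD of 5 arrays. The cyclopamine points of en1a lie between -7.03 and -4.87, all below the ethanol points at -3.70 to -2.96, while the groups overlap for the other genes.

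The unequal change of en1a and its relatives was tested on the difference between 2 probes within each array, by exact permutation of the array labels, two-sided and adjusted over 9 tests. In cyclopamine embryos against ethanol embryos, the log2 change of en1a minus that of en1b was -1.83. The same quantity was -2.34 against en2a and -2.55 against en2b. Each of the 3 had an adjusted p of 0.0238 from a raw p of 0.00794 (exact permutation test, n = 5 each). The gaps of the groups did not overlap. That raw p is the smallest possible when labels move freely between the arrays of both groups. The replicate numbers of cyclopamine and ethanol were taken as pairs, which this permutation did not keep. An exact permutation that keeps the 5 pairs has too few arrangements for a two-sided p under 0.05, and none was run. With the background model on negative control spots and its offset of 50 intensity units, the 3 log2 values were -0.53, -1.07 and -1.21. None of them passed (exact permutation test, adjusted p = 0.167, 0.107 and 0.107). That offset shrinks log2 changes more for a dim probe such as en1a than for brighter ones. Its part in these smaller values was not tested.

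SANT-2 gave no engrailed call, and 0% of all genes were called against ethanol by limma, with 128 of 11433 at an unadjusted p under 0.05. The en1a probe was at 12.8, 6.56, 8.66, 8.08 and 9.20% in SANT-2 embryos, with replicate 2 below the ethanol range and the other 4 inside it. The log2 difference was -0.18 (95% interval -0.85 to 0.49). A fall of the size measured with cyclopamine lies outside this interval. All 3 comparisons with ethanol share the same 5 ethanol arrays.

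The other engrailed genes of SANT-2 embryos overlapped the ethanol range too. The en1b probe was at 62.4, 46.9, 46.7, 58.6 and 55.8%, with a difference of -0.05 (95% interval -0.37 to 0.26). The en2a probe was at 41.8, 51.1, 45.1, 71.5 and 72.8%, with a difference of 0.02 (-0.40 to 0.44), and en2b was at 53.1, 62.0, 45.1, 51.6 and 70.0%, with a difference of 0.01 (-0.32 to 0.35). At an unadjusted p under 0.05, 0 of 4 engrailed genes differed.

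GANT-61 gave no engrailed call either, with 0.157% of all genes called against ethanol and 0 of 4 engrailed genes at an unadjusted p under 0.05. At that unadjusted p, 719 of all 11433 genes differed. The en1a probe was at 11.1, 4.53, 7.13, 7.36 and 5.72% in GANT-61 embryos. Of these arrays 4 lay below the lowest ethanol array and the remaining one inside the ethanol range. The difference was -0.55 (95% interval -1.21 to 0.12, limma, adjusted p = 0.824), negative on 3 of 4 slides. The GANT-61 array was the lower one in 5 of 5 couples of the same replicate number, by -0.85 to -0.12, although the numbers were not taken as pairs in this comparison.

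The en1b probe had the same order of GANT-61 arrays at its extremes, with 56.7, 34.7, 45.2, 47.6 and 43.8%, replicate 1 highest and replicate 2 lowest as for en1a. Its difference from ethanol was -0.31 (95% interval -0.63 to 0.01, limma, adjusted p = 0.794), or -0.60 to -0.016 with slide as a block (adjusted p = 0.275). The en2a probe was at 46.7, 43.4, 65.0, 61.0 and 61.4% in GANT-61 embryos, a difference of 0.01 (-0.41 to 0.44), and en2b at 51.2, 56.2, 58.7, 55.4 and 61.6%, a difference of 0.03 (-0.30 to 0.37). The unequal change of en1a and the other engrailed genes did not pass in SANT-2 or in GANT-61 embryos (exact permutation test, 6 of the 9 tests). With each replicate number's mean subtracted, the change of en1a minus that of en2b with GANT-61 passed at -0.58 (permutation test, adjusted p = 0.0357). That permutation moved labels freely across replicate numbers, which were not taken as pairs in this comparison. It therefore decides nothing about this difference.

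**Figure D2:**
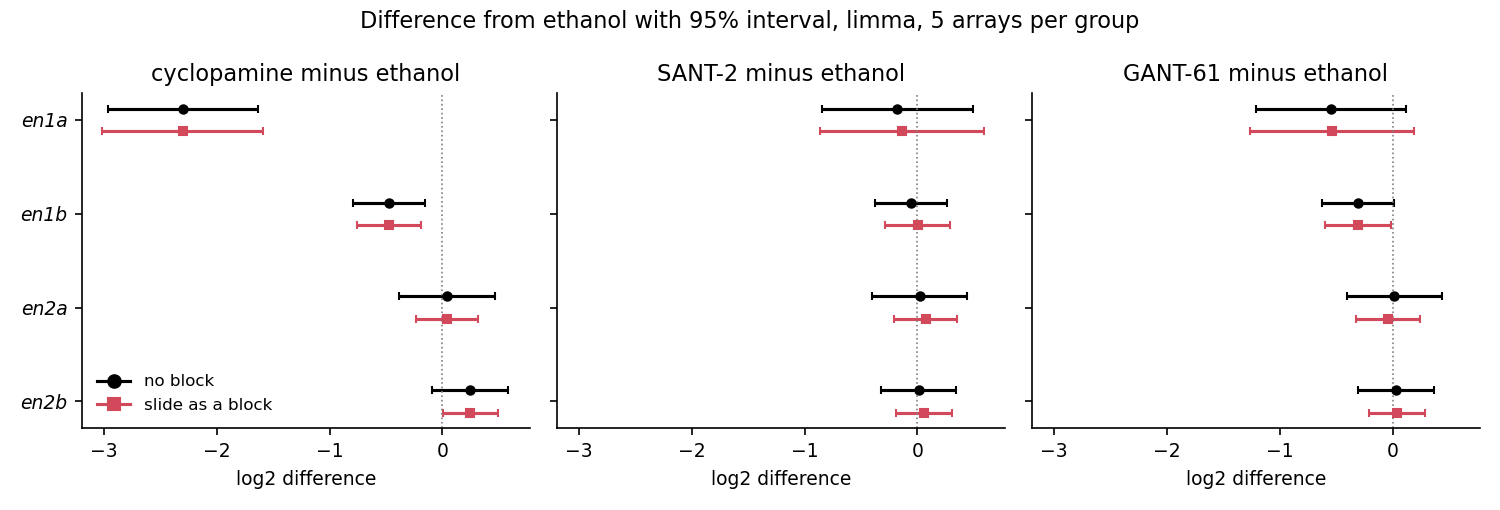
Log2 difference from ethanol (horizontal axes) of the 4 engrailed genes for each compound, with 95% intervals from limma on 5 arrays per group, without a block (black circles) and with slide as a block (red squares). The interval of en1a with cyclopamine runs from -2.97 to -1.63, and those of SANT-2 and GANT-61 reach past 0.

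The compounds were also compared with each other. The en1a level was lower in cyclopamine than in SANT-2 embryos by -2.12 (95% interval -2.79 to -1.45, limma, adjusted p = 0.000936, with 0.752% of all genes called). It was lower in cyclopamine than in GANT-61 embryos by -1.75 (-2.42 to -1.09, adjusted p = 0.00371, with 1.83% of all genes called). Both differences were negative on 4 of 4 slides. The call against GANT-61 was lost when only those 2 groups entered the fit (adjusted p = 0.0642) and when slide 3 was left out (-1.76, adjusted p = 0.131).

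For en1b the differences were -0.42 for cyclopamine against SANT-2 (adjusted p = 0.651) and -0.17 for cyclopamine against GANT-61 (adjusted p = 0.943). Between SANT-2 and GANT-61, where 0.262% of all genes were called, en1a differed by 0.37 (95% interval -0.30 to 1.04) and en1b by 0.25 (-0.06 to 0.57). Both were higher in SANT-2 embryos in 5 of 5 pairs and on 4 of 4 slides, and neither passed. The order of the group means was cyclopamine, GANT-61, SANT-2 and ethanol, low to high, for en1a and for en1b alike. For en1a only the step between cyclopamine and GANT-61 passed the test, and for en1b no step between neighbours did.

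Muscle genes were measured on the same arrays. Their lists and those below were chosen with earlier results of these data known, so the counts are a description only. Of the 10 measured genes in a list of slow muscle and muscle pioneer genes, 5 fell with cyclopamine against ethanol, against 0.875% of all genes. The median difference of these 10 was -1.38, against 0.03 over all genes, but no gene of the list lay between -2.33 and -0.43, and over all 11 genes of the list on the array the median was -0.43. They were smyhc1, a slow myosin heavy chain, at -3.02 ± 0.55 (SE, adjusted p = 0.00558), myl13 at -2.99 ± 0.33 and myl10 at -2.78 ± 0.27, both myosin light chains, and tnni4b.2 at -2.86 ± 0.42 and tnnc1b at -2.33 ± 0.27, a troponin I and a troponin C. The smyhc1 probe ranged over 3.10 to 66.5% in cyclopamine embryos, against 83.6 to 147% in ethanol embryos. The mean log2 level of the 10 genes ranged over -1.51 to -0.57 in cyclopamine arrays, against 0.23 to 0.67 in ethanol arrays.

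The remaining genes of that list did not pass without a block. The transcription factor prox1a was at -0.34 ± 0.11 (SE, adjusted p = 0.287). A block for slide brought prox1a past the threshold (limma, adjusted p = 0.0299, 2.17% of all genes called in that fit). The other 4 were stac3 at -0.43, tnni1b at -0.24, six1a at -0.23 and six4b at 0.03.

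In a list of fast and general muscle genes, 1 of 18 was called lower with cyclopamine, against 0.84% of all genes. The median difference was -0.15, against 0.03 over all genes. Of the 18, 14 lay below 0, against 4921 of all 11433 genes tested. The called gene was myod1, which directs the myogenic programme, at -0.79 ± 0.15 (SE, limma, adjusted p = 0.00603). The fast myosin light chain mylpfa differed by -0.10, the fast-fibre calcium pump atp2a1 by -0.22 and the general myogenic factor myog by -0.17, none of which passed. The mean log2 level of the 18 genes ranged over 0.26 to 1.51 in cyclopamine arrays, against 0.69 to 1.61 in ethanol arrays.

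In SANT-2 and GANT-61 embryos, 0 genes of either muscle list were called against ethanol by limma, with or without a block. At an unadjusted p under 0.05, the slow list had 0 of 10 with SANT-2 and 1 of 10 with GANT-61. Of all 11433 genes, 128 and 719 reached that level. The median difference with GANT-61, the compound with the lower en1a and en1b means, was -0.14 in the slow list and -0.14 in the fast list, against 0.05 over all genes. With SANT-2 these medians were 0.08 and 0.12, against 0.04 over all genes. The part of muscle level in the engrailed values was not tested.

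Genes known to answer to hedgehog signal were measured on the same arrays. This list too was chosen with earlier results of these data known, so its counts are a description only. With cyclopamine, 10 of 15 fell and 0 rose, against 0.84% of all genes called lower, and the median difference was -1.58. The homeobox gene nkx2.2a of the ventral neural tube fell by 3.92 ± 0.20 (SE), and olig2, which marks motor neuron progenitors, fell by 2.83 ± 0.19. The forkhead genes foxf1 and foxl1 fell by 2.17 and 2.30, and in cyclopamine embryos foxf1 was well above background on 3 of 5 arrays and foxl1 on 2 of 5. The homeobox gene nkx2.9 was not well above background on any cyclopamine array. A bound on its group level put it at least 8.83-fold below the ethanol mean. The limma adjusted p of 5.08e-06 belongs to the fitted difference and not to this bound. Single nkx2.9 values ranged over 0.292 to 2.22% in cyclopamine embryos, against 7.26 to 12.6% in ethanol embryos.

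The remaining called members were nkx3-2 at -2.71, foxf2a at -2.18, nkx6.1 at -1.58, foxa at -1.50 and nkx2.4a at -0.71. In cyclopamine embryos foxf2a was well above background on 3 of 5 arrays. Under either block 12 of the 15 were called lower, with nkx2.4b and foxa2 added at -0.50 each, where 1.69% (slide) and 1.86% (replicate number) of all genes were called lower. The transcription factor gli2a differed by 0.14 and gli3 by 0.39, and neither passed. Against SANT-2 9 of the 15 were called lower in cyclopamine embryos and against GANT-61 11 were, beside 0.735% and 1.61% of all genes. The comparison with GANT-61 added nkx2.4b at -0.61 ± 0.14 (SE, limma, adjusted p = 0.0232). Under either block these counts were 12 and 13. The shares of all genes called lower were then 1.37% and 3.59% (slide) and 1.67% and 3.78% (replicate number).

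In SANT-2 and in GANT-61 embryos 0 of the 15 hedgehog-responsive genes were called against ethanol by limma. At an unadjusted p under 0.05 there were 0 and 1, against 128 and 719 of all 11433 genes. The differences of the 15 lay between -0.15 and 0.24 with SANT-2 and between -0.22 and 0.40 with GANT-61. The medians were 0.0041 and 0.04, against 0.04 and 0.05 over all genes.

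**Figure D3:**
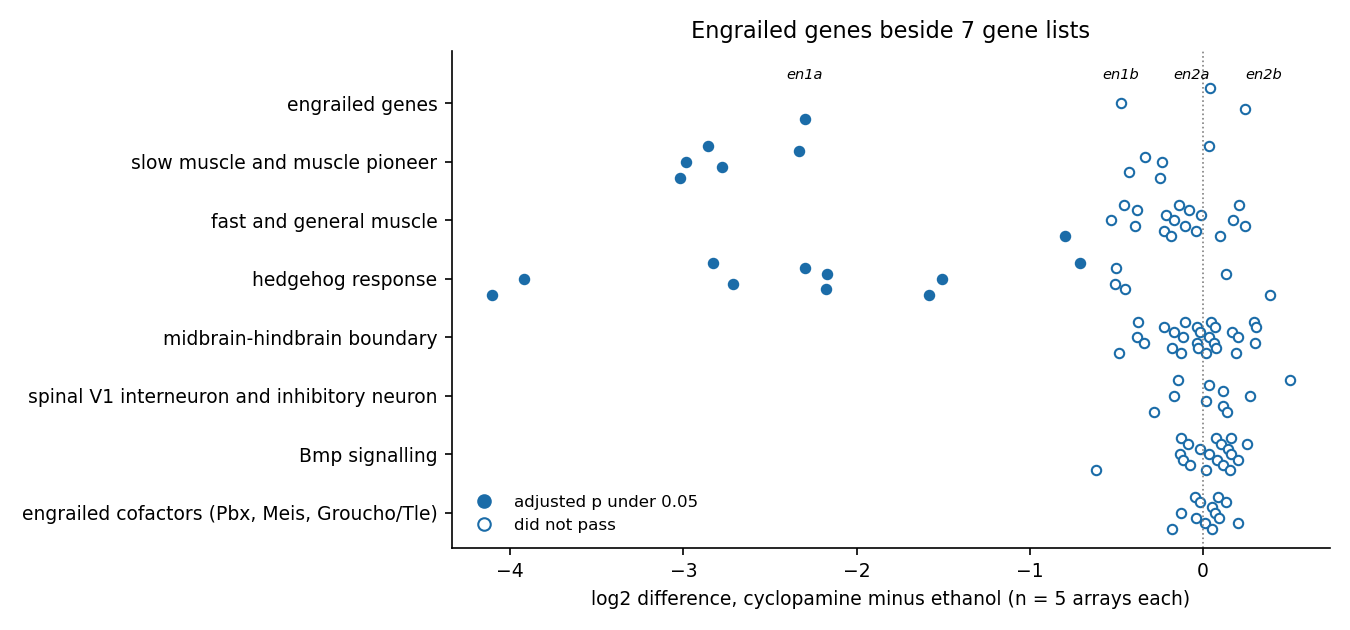
Log2 difference between cyclopamine and ethanol embryos (horizontal axis, n = 5 arrays each) for the 4 engrailed genes and for the tested genes of 7 lists, 1 point per gene, filled where the adjusted p was under 0.05. The fitted value is plotted for nkx2.9, whose cyclopamine level is only a bound. Filled points appear in the slow muscle, fast muscle and hedgehog rows and at en1a, and the midbrain-hindbrain points lie between -0.48 and 0.31.

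Other genes of the midbrain-hindbrain boundary were tested next, 26 of a list of 41. Of the 41, 28 had a matched probe on the array. The genes wnt1, pax5 and pax8 were among those without a matched probe. Of 26, 0 were called with cyclopamine against ethanol by limma without a block. An unadjusted p under 0.05 was seen for 4 of them, against 613 of all 11433 genes. The median difference was -0.02, against 0.03 over all genes, with 14 genes below 0 and 12 above. The paired box gene pax2a, which acts at the boundary together with engrailed, differed by 0.04 (95% interval -0.28 to 0.35), and its probe ranged over 62.7 to 83.6% in cyclopamine embryos, against 52.3 to 86.1% in ethanol embryos. The organiser signal fgf8a differed by -0.22 (-0.55 to 0.11) and gbx2, a homeobox gene of the hindbrain side, by -0.03 (-0.40 to 0.34).

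Of the transcription factors of the boundary region, otx1 differed by 0.29 and otx2a by -0.11, both on the midbrain side. The others were irx7 at -0.48, barhl2 at -0.34, pax2b at -0.16, lmx1ba at -0.03, irx1b at -0.01, gbx1 at 0.02, her5 at 0.05, her11 at 0.07, sp5a at 0.08 and sp5l at 0.17. With slide as a block barhl2 passed (limma, adjusted p = 0.0342, 2.17% of all genes called in that fit).

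Of the genes of Fgf signalling, spry2 differed by -0.38 and spry4 by -0.18, both feedback inhibitors, fgf17 by -0.10, the target factors etv5b by -0.03 and etv4 by 0.30, the phosphatase dusp6 by 0.06 and the Fgf modulator cnpy1 by 0.19. The Wnt ligands wnt8b and wnt3a differed by -0.38 and 0.31. The guidance molecules efna2a and epha4a differed by -0.12 and 0.20. None of these passed. In SANT-2 and in GANT-61 embryos, 0 of the 26 were called against ethanol by limma. An unadjusted p under 0.05 was seen for 1 each, against 128 and 719 of all 11433 genes. The median differences of the 26 were -0.03 and 0.14, against 0.04 and 0.05 over all genes. Of the 26, 10 lay above 0 with SANT-2 and 22 with GANT-61, against 6855 and 6875 of all 11433 genes tested.

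Between cyclopamine and GANT-61 embryos, 0 of the 26 boundary genes were called by limma without a block, and 4 were lower in cyclopamine embryos under either block, where 3.59% (slide) and 3.78% (replicate number) of all genes were called lower. They were irx7 at -0.61, fgf17 at -0.55, spry4 at -0.43 and barhl2 at -0.34 in the model without a block. Their limma adjusted p-values were 0.0224, 0.0130, 0.0157 and 0.0156 with slide as a block and 0.0206, 0.0242, 0.0445 and 0.0458 under the block for replicate number. Between cyclopamine and SANT-2 embryos barhl2 alone was called, with slide as a block (limma, adjusted p = 0.0411, 1.54% of all genes called in that fit).

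Partners of engrailed proteins made up a further list. Of 13 measured Pbx, Meis and Groucho/Tle genes, 0 were called with cyclopamine by limma, 0 at an unadjusted p under 0.05, and the median difference was 0.05. The 2 with the highest signal were meis3 at 0.06 ± 0.13 and pbx4 at 0.09 ± 0.11 (SE), both homeodomain cofactors. With SANT-2 and GANT-61 0 were called against ethanol. At an unadjusted p under 0.05 there were 0 and 1, against 128 and 719 of all 11433 genes.

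Of 19 measured genes of Bmp signalling, 0 were called with cyclopamine by limma and 0 had an unadjusted p under 0.05. The targets id1 and id3, which had the highest signal, differed by 0.12 ± 0.16 and 0.16 ± 0.11 (SE). Their median difference was 0.08. With SANT-2 and GANT-61 0 were called against ethanol. At an unadjusted p under 0.05 there were 0 and 2, against 128 and 719 of all 11433 genes.

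Of 10 measured genes of spinal V1, inhibitory and other interneurons, 0 were called with cyclopamine against ethanol by limma without a block. An unadjusted p under 0.05 was seen for 1 of them, against 613 of all 11433 genes. That gene was bhlhe22, a basic helix-loop-helix factor of spinal interneurons, at 0.50 ± 0.12 (SE, adjusted p = 0.0698), whose call appeared under either block (limma, adjusted p = 0.0128 for slide, adjusted p = 0.0311 for replicate number). Those fits called 2.17% (slide) and 2.24% (replicate number) of all genes. The bhlhe22 probe ranged over 140 to 214% in cyclopamine embryos, against 114 to 128% in ethanol embryos. Against GANT-61 embryos bhlhe22 was higher in cyclopamine embryos by 0.62 ± 0.12 (SE, adjusted p = 0.00876). With SANT-2 and GANT-61 0 of the 10 were called against ethanol, and 0 had an unadjusted p under 0.05 with either.

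Markers of other tissues were examined beside these results. With cyclopamine 0 genes were called by limma among 6 of epidermis, 5 of the erythroid line, 6 of lens, 6 of notochord and floor plate, 4 of germ cells and 1 of yolk lipid transport. The median differences were 0.38 for lens, 0.17 for epidermis, 0.12 for the erythroid line, 0.04 for germ cells and -0.16 for notochord and floor plate, against 0.03 over all genes. Under either block foxa2, which the hedgehog list also holds, and ccn2a were called lower in the notochord and floor plate list, at -0.50 each. In those fits 1.69% (slide) and 1.86% (replicate number) of all genes were called lower.

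With SANT-2 and with GANT-61 0 of these marker genes were called against ethanol by limma without a block. The medians with SANT-2 were 0.41 for lens, 0.09 for epidermis, 0.0036 for germ cells, -0.02 for the erythroid line and -0.02 for notochord and floor plate. With GANT-61 they were 0.33 for lens, 0.20 for epidermis, 0.35 for germ cells, -0.17 for the erythroid line and 0.12 for notochord and floor plate. With slide as a block, where 1.71% of all genes were called between GANT-61 and ethanol, 3 marker genes were called higher in GANT-61 embryos. They were the lens gene crygn2, the germ cell gene piwil1 and the keratin gene krt17, whose differences without a block were 1.26, 0.88 and 0.53. The part of these tissues in the engrailed values was not tested.

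The likeness of the engrailed genes to one another and to other genes was taken as Pearson's r of log2 levels over the 20 arrays after each slide mean was subtracted, as a description of arrays that share slides and groups. Between the duplicates en1a and en1b it was 0.86, and 0.91 over the 15 arrays without cyclopamine. Between en2a and en2b it was 0.47, and 0.67 without cyclopamine. Between an en1 and an en2 gene it was negative, at -0.39 for en1a and en2a, -0.64 for en1a and en2b, -0.46 for en1b and en2a, and -0.57 for en1b and en2b. Without subtraction of the slide mean these 4 values were -0.21, -0.45, -0.08 and -0.24, while the duplicates stood at 0.82 for en1a and en1b and at 0.67 for en2a and en2b. With the slide mean subtracted and without cyclopamine, the 4 values were -0.36, -0.61, -0.26 and -0.55. Ethanol replicate 3 was the highest of the 20 arrays for en1a and en1b and the lowest for en2a and en2b. The r without that array was not computed.

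**Figure D4:**
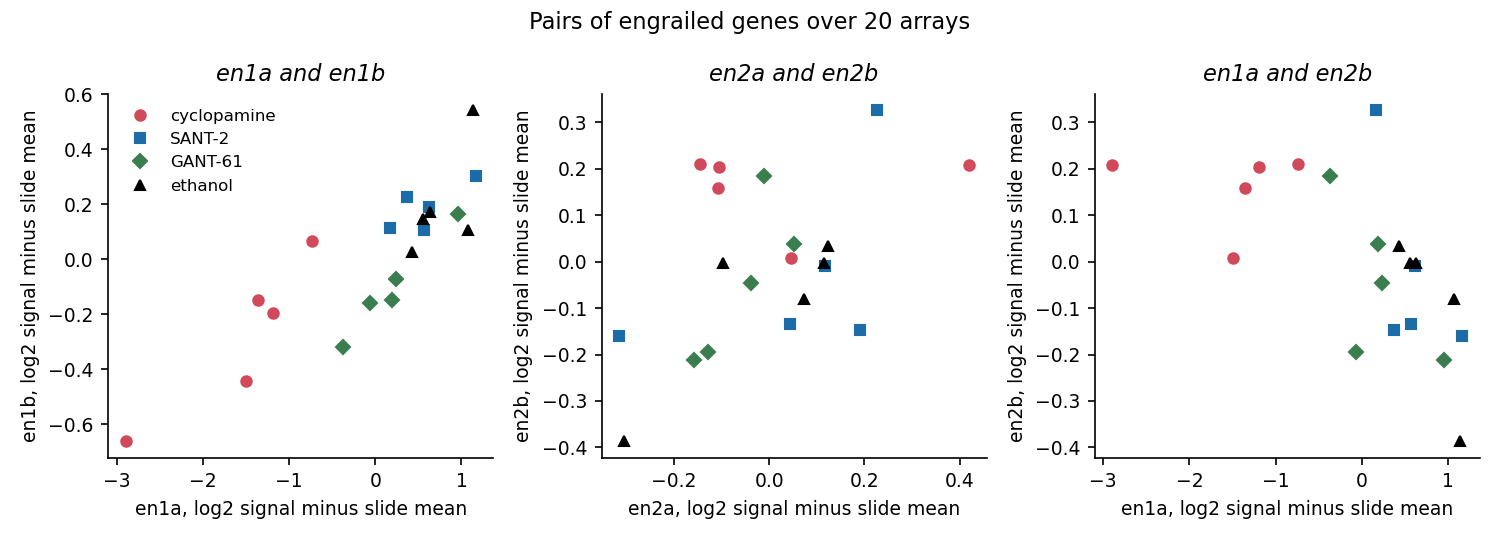
Log2 signal minus the slide mean of one engrailed gene (horizontal axis) against another (vertical axis), 1 point per array, 20 arrays, marked by group. In the left panel the 15 arrays of SANT-2, GANT-61 and ethanol lie along a rising line, with the 5 cyclopamine arrays at lower en1a. The r of 0.91 for those 15 arrays used slide means without cyclopamine, which are not the means plotted. The middle panel shows the looser pair en2a and en2b (r = 0.47), and the right panel slopes downward (r = -0.64).

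Among 7475 genes with a symbol, en1b was 39th in likeness to en1a. The 5 nearest to en1a were the homeobox gene six6b at an r of 0.95, the forkhead gene foxf2a at 0.94, the transcription factor sim2 at 0.94, the muscle caveolar protein cavin4a at 0.94 and the Z-disc protein pdlim5b at 0.93. These 5 were chosen over arrays that include the cyclopamine group, in which en1a is low, so their cyclopamine differences are a description only: -1.22 for six6b, -2.18 for foxf2a, -1.16 for sim2, -2.38 for cavin4a and -0.95 for pdlim5b. Over the 15 arrays without cyclopamine their r with en1a was 0.51, 0.70, 0.68, 0.69 and 0.88 in the same order, against 0.91 for en1b.

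The 5 genes nearest to en1b were trim55a at 0.93, trim63a at 0.93, pdlim5b at 0.92, casq2 at 0.91 and smyd1a at 0.90. The products of trim55a and trim63a are ubiquitin ligases of the sarcomere, casq2 encodes a calcium-binding protein of muscle, and smyd1a a muscle methyltransferase. Without the cyclopamine arrays their r with en1b lay between 0.84 and 0.95. Chosen on the same arrays, they differed between cyclopamine and ethanol by -0.61 for trim55a, -0.50 for trim63a, -0.95 for pdlim5b, -0.67 for casq2 and -0.84 for smyd1a.

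For en2a the nearest genes were wdr83 at 0.83, fam49a at 0.83, the recoverin rcvrn2 at 0.78, the small GTPase gene rap2b at 0.77 and cybc1 at 0.76. For en2b they were the transcription factor dmrt2a at 0.88, ogfr2 at 0.87, acat2 at 0.85, nek4 at 0.84 and map1lc3a at 0.84. The cyclopamine differences of these 10 genes lay between -0.12 and 0.56. Without subtraction of the slide mean, 2 of the 5 nearest to en1a, 3 of those to en1b, 0 of those to en2a and 2 of those to en2b stayed among the 5.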

How the data were processed

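Per the file headers, Agilent Feature Extraction 10.1.1.1 made the Cy3 intensity per spot, after background subtraction and spatial detrending and without normalization between arrays. The authors' own deposited log2 table, normalized by a method not given in the sources used here, served as an alternative. Probe gene names came from RefSeq accessions on the array, looked up in a gene table of assembly GRCz12tu used for names alone, and 9185 of 14694 probes matched a symbol. Genome coordinates and sequences were not used here.

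The log2 intensity, without outlier spots, was reduced by the 75th percentile of each array. Spots of a probe were averaged and the brightest probe of a gene was kept. A gene was tested if well above background on at least 4 of 5 arrays of at least 1 group. The groups were fitted together in limma 3.58.1 (R 4.3.3) with 1 mean per group. P-values are two-sided and Benjamini-Hochberg adjusted within a comparison. The code was tested on simulated data. No label names separate spawnings for the 5 independent replicates, so p-values measure the spread between these pools.

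The replicate numbers were checked for pairing by correlating deviations from the group means. Every pair exceeded 0.1 in 4 comparisons, whose lowest correlations were 0.46 (cyclopamine with ethanol), 0.26 (cyclopamine with SANT-2), 0.21 (cyclopamine with GANT-61) and 0.14 (SANT-2 with GANT-61). In the same order, 5, 4, 3 and 4 of 5 pairs lay on the same slide. Arrays of unlike replicate number on a shared slide were not correlated, so this check cannot tell replicate number and slide apart. The ethanol comparisons of SANT-2, at -0.0077, and GANT-61, at -0.045, were not taken as paired. The main model had no block and did not use the pairs in any comparison.

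The members, the gene lists and the rule for named genes were chosen with earlier results of these data known. The rule took the engrailed genes on every array, called list members (at most 5 for cyclopamine against ethanol, and all in other comparisons), every measured midbrain-hindbrain gene, the 2 brightest of a list without calls, and the 5 genes most like each engrailed gene. The muscle genes mylpfa, atp2a1 and myog, the genes gli2a and gli3, the slow muscle genes prox1a, stac3, tnni1b, six1a and six4b, and the markers foxa2 and ccn2a were named after their values were seen. The files lack a mean signal column, so the planned normexp correction used the median signal, with an offset of 50. The background model on negative control spots used the same signal and the same offset.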

Additional observations from a re-analysis of the deposited data

How the results depend on the processing

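The direction and call of en1a between cyclopamine and ethanol held in all 15 alternatives other than the planned normexp correction, over -2.42 to -0.99 with an adjusted p of at most 0.0187, and with each of the 10 arrays left out in turn (-2.49 to -1.95). It rests on a signal close to background, on 3 of 5 arrays above it in cyclopamine embryos. Of all values computed again, 742 kept direction and call, 78 turned sign, 7 lost the call, 2 gained it and 10 moved otherwise. With normexp on median signals, whose background model broke down on 2 cyclopamine arrays, en1a was 0.34 (cyclopamine minus ethanol), 0.39 (minus SANT-2) and 0.55 (minus GANT-61), en1b 0.030 (cyclopamine minus SANT-2) and 0.24 (minus GANT-61), en2b -0.012 (SANT-2 minus ethanol) and en2a -0.053 (SANT-2 minus GANT-61). The change of en1a minus that of another gene was then 0.38, 0.015 and 0.071 for en1b with cyclopamine, SANT-2 and GANT-61, and -0.022 for en2a and -0.12 for en2b with cyclopamine. With the background model on negative control spots, chosen after seeing the data, that quantity was -0.53, 0.051 and 0.10 for en1b with the same compounds. It was then -1.07 for en2a and -1.21 for en2b with cyclopamine. Both corrections added an offset of 50 intensity units, whose part was not tested.

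The replicate block called en1b between cyclopamine and ethanol at -0.47 (limma, adjusted p = 0.0333) and changed no other engrailed call. With each replicate number's mean subtracted, the change of en1a minus that of en2b with GANT-61 passed at -0.58 (permutation test, adjusted p = 0.0357). Its labels moved freely across replicate numbers, which were not taken as pairs there, so it decides nothing. The call of en1a between cyclopamine and GANT-61 was lost at -1.75 with only the 2 groups compared and at -1.76 without slide 3. Between cyclopamine and ethanol, the midbrain-hindbrain list had 1 called gene with slide as a block, and the spinal interneuron list had 1 with slide and 1 with the replicate block. That comparison called 0.875% of all genes without a block, 2.17% with slide and 2.24% with the replicate block. Between cyclopamine and GANT-61 the midbrain-hindbrain list had 4 of 26 with either block, against 0 without. There the shares of all genes called were 1.83% without a block, 5.36% with slide and 5.65% with the replicate block. The cause of these changes was not tested.

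The other sign changes were of uncalled differences near 0. Median scaling gave -0.038 for en2a and -0.047 for en2b (SANT-2 minus ethanol), -0.068 and -0.051 (GANT-61 minus ethanol) and 0.0035 for en2b (SANT-2 minus GANT-61). Negative control spots gave -0.0014 for en2b (SANT-2 minus ethanol), -0.015 for en2a (cyclopamine minus GANT-61) and -0.055 for en2a (SANT-2 minus GANT-61). Slide as a block gave 0.00081 for en1b (SANT-2 minus ethanol), -0.041 for en2a (GANT-61 minus ethanol), -0.033 for en2a (cyclopamine minus SANT-2) and 0.022 for en2b (SANT-2 minus GANT-61). Array weights gave -0.0050 for en2a (cyclopamine minus ethanol), -0.11, -0.068 and 0.047 for en2a, en2b and en1b (SANT-2 minus ethanol), -0.033 for en2b (GANT-61 minus ethanol), -0.037 for en2a (cyclopamine minus GANT-61) and -0.14 for en2a (SANT-2 minus GANT-61). Without slide 1, en2a was -0.11 (cyclopamine minus SANT-2) and -0.059 (cyclopamine minus GANT-61). Without slide 2, en2a was -0.038 (cyclopamine minus ethanol), -0.0029 (SANT-2 minus ethanol), -0.055 (GANT-61 minus ethanol) and -0.035 (cyclopamine minus SANT-2), en2b was -0.076 (SANT-2 minus ethanol), -0.10 (GANT-61 minus ethanol) and 0.027 (SANT-2 minus GANT-61), and en1a and en1b were 0.064 and 0.12 (SANT-2 minus ethanol). Without slide 3, en2a was -0.047 (SANT-2 minus ethanol) and -0.091 (GANT-61 minus ethanol), and en2b 0.015 (SANT-2 minus GANT-61). Without slide 4, en2a was -0.055 (SANT-2 minus GANT-61).

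With each array left out in turn, en2a ranged over -0.11 to 0.15 (cyclopamine minus ethanol), -0.13 to 0.13 (SANT-2 minus ethanol), -0.14 to 0.12 (GANT-61 minus ethanol), -0.079 to 0.12 (cyclopamine minus SANT-2), -0.059 to 0.10 (cyclopamine minus GANT-61) and -0.096 to 0.10 (SANT-2 minus GANT-61). The range of en2b was -0.13 to 0.098 (SANT-2 minus ethanol), -0.10 to 0.12 (GANT-61 minus ethanol) and -0.10 to 0.055 (SANT-2 minus GANT-61). The change of en1a minus that of en2a and en2b with SANT-2 ranged over -0.43 to 0.044 and -0.34 to 0.037.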

Other observations

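Averaged over all groups, the en2a probe was at 52.8% of the 75th percentile on slide 1, 44.0% on slide 2, 62.8% on slide 3 and 67.3% on slide 4. The en2b probe averaged 59.7, 50.2, 57.3 and 70.8% on the same slides. The lowest ethanol array for both genes, replicate 3 at 35.4 and 37.8%, lay on slide 2, whose arrays had the lowest 75th percentiles. For en1a the slide means were 7.96, 6.93, 6.83 and 6.70%, and for en1b they were 51.6, 44.6, 50.4 and 49.3%. The slides held unequal shares of cyclopamine arrays. Without those arrays the mean log2 levels were -3.23, -3.72, -3.66 and -3.67 for en1a. For en1b they were -0.83, -1.10, -0.96 and -0.96. These slide differences were not tested.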
